A study of Mus musculus with 24 samples.

Results

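The microglial identity transcription factors described here are 9 genes chosen by name: Spi1, Irf8, Cebpa, Runx1, Sall1, Maf, Mef2a, Mef2c and Smad3. All 9 were listed among the 20636 genes of both TPM tables (transcripts per M of all transcripts, M being mega), and all 9 in both RPKM tables (reads per kilobase of transcript and M alignments) of the same libraries. A mean of at least 1 TPM at both ages was reached by 8 of them, and Mef2c, the ninth, was read from the RPKM tables. The libraries are bulk RNA-seq of microglia, which are the macrophages that live in brain tissue, and come from C57BL/6J mice at 17 and 3 months of age. At each age 4 homozygous knockouts of C9orf72 (3110043O21Rik), called HOM, 4 heterozygous knockouts, called HET, and 4 wild types, called WT, were profiled. C9orf72 is a gene of membrane traffic and lysosome biology whose repeat expansion in humans is a cause of amyotrophic lateral sclerosis and frontotemporal dementia. The labels give no drug treatment, do not state how the allele was made, and name no driver that would limit the loss to a cell type. Brains were freed of meninges, and cells were taken with CD11b beads, which also bind other myeloid cells such as neutrophils and monocytes.

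Microglial identity is held by general macrophage factors that work together with factors induced by the brain environment. PU.1 (the product of Spi1) and C/EBP alpha (Cebpa) set up the macrophage lineage and open its enhancers, IRF8 joins PU.1 at many of these sites, and RUNX1 acts in blood and macrophage development. SALL1, the MEF2 proteins, MAF and SMAD3 are tied to the state of microglia in brain tissue, where TGF-beta signals through SMAD proteins and where Sall1 is used as a marker that sets microglia apart from other macrophages.

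The 9 genes lie on 6 chromosomes of the GRCm38 (mm10) build. Spi1 lies at chr2:91082390-91115756 on the plus strand, Maf at chr8:115682942-115707794 on the minus strand, Irf8 at chr8:120736358-120756694 on the plus strand and Sall1 at chr8:89027235-89044162 on the minus strand. Mef2a lies at chr7:67231163-67372858 on the minus strand, Cebpa at chr7:35119293-35121928 on the plus strand, Mef2c at chr13:83504034-83667080 on the plus strand, Runx1 at chr16:92601466-92826149 on the minus strand and Smad3 at chr9:63646767-63757994 on the minus strand. RefSeq promoter windows of 250 bases before a start (GRCm38.p6) were matched by symbol for 7 of the 9, in 13 windows, and Spi1 and Maf had none in the table used. The windows of Sall1, Mef2a and Mef2c are printed because of their correlations across animals. Sall1 with Mef2a had the highest r by TPM, and Mef2a with Mef2c the highest by RPKM. Those of Irf8 and Cebpa are printed because both hold a TATA box motif near the start. Each is written 5′ to 3′ on the gene's strand and ends at the base before the start. Capitals mark matches, on either strand, to the PU.1 core, GAGGAA. They also mark those to the promoter element that places the start of many genes, TATAAA.
Sall1, chr8:89044163-89044412, minus strand: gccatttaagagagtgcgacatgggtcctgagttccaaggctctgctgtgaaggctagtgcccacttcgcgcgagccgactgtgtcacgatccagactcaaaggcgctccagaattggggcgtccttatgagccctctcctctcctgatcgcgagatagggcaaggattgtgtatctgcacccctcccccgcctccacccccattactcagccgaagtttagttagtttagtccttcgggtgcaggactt
Mef2a, chr7:67372859-67373108, minus strand: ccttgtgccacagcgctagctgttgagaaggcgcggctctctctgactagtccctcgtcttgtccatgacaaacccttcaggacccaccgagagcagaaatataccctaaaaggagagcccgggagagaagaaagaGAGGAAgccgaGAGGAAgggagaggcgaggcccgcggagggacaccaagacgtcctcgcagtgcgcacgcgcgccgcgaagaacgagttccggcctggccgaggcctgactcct
Mef2c, chr13:83503784-83504033, plus strand: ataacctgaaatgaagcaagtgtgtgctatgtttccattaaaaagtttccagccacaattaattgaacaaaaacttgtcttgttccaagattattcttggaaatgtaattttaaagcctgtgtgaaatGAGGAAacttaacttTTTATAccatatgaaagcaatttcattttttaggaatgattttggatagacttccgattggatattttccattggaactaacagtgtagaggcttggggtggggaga
Irf8, chr8:120736108-120736357, plus strand: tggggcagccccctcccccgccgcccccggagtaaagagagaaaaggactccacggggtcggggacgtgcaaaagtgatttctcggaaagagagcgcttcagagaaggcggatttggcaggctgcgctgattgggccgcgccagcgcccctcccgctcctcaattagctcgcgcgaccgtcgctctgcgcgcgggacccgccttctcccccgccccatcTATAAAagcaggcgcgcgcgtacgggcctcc
Cebpa, chr7:35119043-35119292, plus strand: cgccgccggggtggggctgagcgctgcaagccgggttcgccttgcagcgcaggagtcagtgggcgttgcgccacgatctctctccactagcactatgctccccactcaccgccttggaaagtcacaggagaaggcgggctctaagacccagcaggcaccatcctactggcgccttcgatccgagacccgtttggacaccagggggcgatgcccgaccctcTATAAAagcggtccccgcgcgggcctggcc

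The Mef2a window held GAGGAA at -114 and -103, and the Mef2c window held it at -122 and TATAAA on the minus strand at -107, counted in bases from the start to the leftmost printed base of the match. TATAAA stood at -31 in Irf8 and at -30 in Cebpa, and the Sall1 window held neither motif. GAGGAA was found in 4 of the 13 windows, belonging to 3 genes (Mef2a, Mef2c and Runx1), against 23.3% of 32851 RefSeq windows of the same length. TATAAA was found in 4 of the 13 windows, belonging to Irf8, Cebpa and Mef2c, against 12.4% of all windows. None of the 13 windows held, on either strand, the ETS and IRF composite element (2.3% of all windows), the interferon response element (2.98%), the RUNX site TGTGGT (14%), the C/EBP site TTGCNNAA (9.56%), the SMAD palindrome GTCTAGAC (0.167%), the Maf recognition letters TGCTGAC (3.81%) or the MEF2 consensus (1.69%). The composite and the interferon response element share letters and can overlap. GAGGAA and TATAAA were picked after the sequences had been seen, and a match is a description of letters.

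The libraries held 40.7 to 46.4 M alignments in HOM, 30.6 to 37.1 M in HET and 16.7 to 35.7 M in WT at 17 months, and 30.6 to 33.8 M, 26.3 to 28.9 M and 21.8 to 28.4 M in HOM, HET and WT at 3 months. 3110043O21Rik fell with each lost copy, with at most 0.0484 TPM in HOM, 5.45 to 8.95 TPM in HET and 13.2 to 16.7 TPM in WT at 17 months, and at most 0.265, 7.37 to 11.4 and 20.4 to 25.6 TPM in HOM, HET and WT at 3 months. By Y-linked transcripts 3 HOM, 0 HET and 1 WT were male at 17 months, and 2 HOM, 4 HET and 1 WT at 3 months. The summed TPM of 10 microglial markers was 17187 to 22672 in HOM, 17119 to 24598 in HET and 20478 to 24025 in WT at 17 months, and 27832 to 33620 over the 12 animals of 3 months. Markers of other cells were present as well. The sum of 12 neutrophil markers was 2311 to 6193 TPM in HOM, 568 to 11494 in HET and 422 to 2588 in WT at 17 months, and that of 12 endothelial and mural markers was 407 to 531 TPM in HOM, 177 to 260.3 in HET and 281 to 362 in WT. At 3 months the neutrophil sum was 1824 to 4778 TPM in HOM, 1570 to 5077 in HET and 772 to 2443 in WT. The endothelial and mural sum was then 86.2 to 132 TPM in HOM, 106 to 629 in HET and 155 to 457 in WT. In such bulk samples, fewer cells of a type and less RNA per cell cannot be told apart.

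Spi1 was the most abundant of the factors by TPM in all 6 groups, and Smad3 and Runx1 the least abundant of the 8 that TPM measures. At 17 months the group means of Spi1 were 412 ± 53.2 TPM in HOM, 399 ± 69.5 in HET and 409.8 ± 48.2 in WT (SD, n = 4 each), and at 3 months 431 ± 24.9 in HOM, 419 ± 30.9 in HET and 449 ± 24.8 in WT. Irf8 followed at 17 months, with 282 ± 25.01 TPM in HOM, 291 ± 39.1 in HET and 287 ± 29.6 in WT. Sall1 followed at 3 months, with 363 ± 14.1 TPM in HOM, 342 ± 57.8 in HET and 394 ± 48.2 in WT. The ranges of Irf8 and Sall1 overlapped in every group, as did those of Mef2a and Maf. By mean TPM, Irf8 and Sall1 changed places between the ages, while the mean of Mef2a was above that of Maf in all 6 groups. Spi1 lay apart from the next factor in HOM and WT at 17 months and in HOM at 3 months. Cebpa, Mef2a and Maf filled the middle, and each of the 8 genes stood above 63.9% to 97.9% of the genes kept in its group. On the RPKM scale, which is also per length, Mef2c stood between Maf and Smad3 in each group, above 82.7% to 90.2% of the genes kept. Sall1, not Spi1, had the highest mean of the factors in the 3-month WT group by RPKM, at 188 ± 15.5 RPKM.

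**Figure D1:**
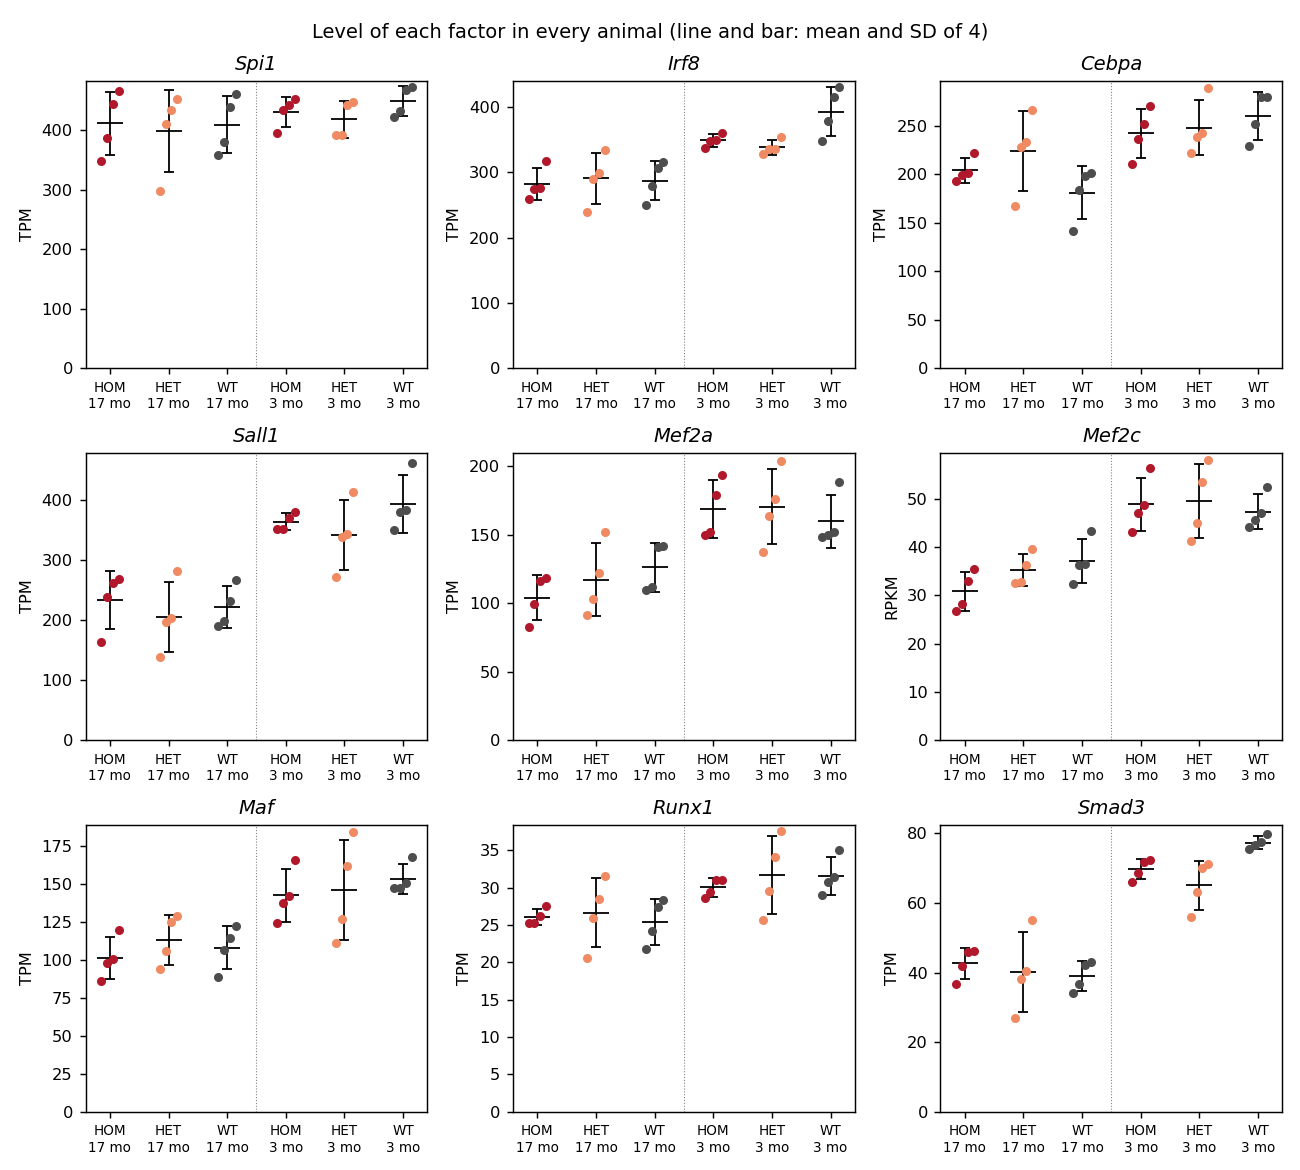
Level of each factor in each animal (points) and group mean with SD (bars), in TPM for 8 factors and RPKM for Mef2c, for HOM, HET and WT at 17 months and at 3 months, 4 animals per group. The genotype groups overlap within an age for all factors except Smad3 at 3 months, where the 4 WT animals sit at 75.5 to 79.8 TPM, above all 4 HOM and all 4 HET animals.

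Mef2c was listed at or near 0 in the TPM tables and at a high level in the RPKM tables. MEF2C is a MEF2 family factor that in mouse microglia has been tied to restraint of inflammatory responses. Its mean over the 12 animals of an age was 0.0242 TPM against 34.4 RPKM at 17 months, and 0.253 TPM against 48.5 RPKM at 3 months. All 8 WT animals were listed at exactly 0 TPM, while the animals above 0.1 TPM were HOM-7835 with 0.290 TPM at 17 months, HOM-8285 with 0.447 and HOM-8287 with 1.54 TPM at 3 months, and HET-8302 with 0.510 and HET-8303 with 0.535 TPM at 3 months. These TPM values entered no test other than the setting with no filter on low values. Among genes with at least 20 RPKM on average, 16 of 2842 at 17 months (0.563%) and 13 of 2816 at 3 months (0.462%) were likewise under 1 TPM, among them Rassf5, Sh3bp1 and Frmd4b at 17 months. The ratio of mean TPM to mean RPKM was 1.65 to 2.09 for the other 8 factors at 17 months, where the quartiles of all such genes were 1.73 and 2.18, and 2.03 to 2.60 at 3 months, where they were 2.12 and 2.59. The ratio of Mef2c was 0.000702 at 17 months and 0.00521 at 3 months, so Mef2c was the only one of the 9 without a usable TPM.

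**Figure D2:**
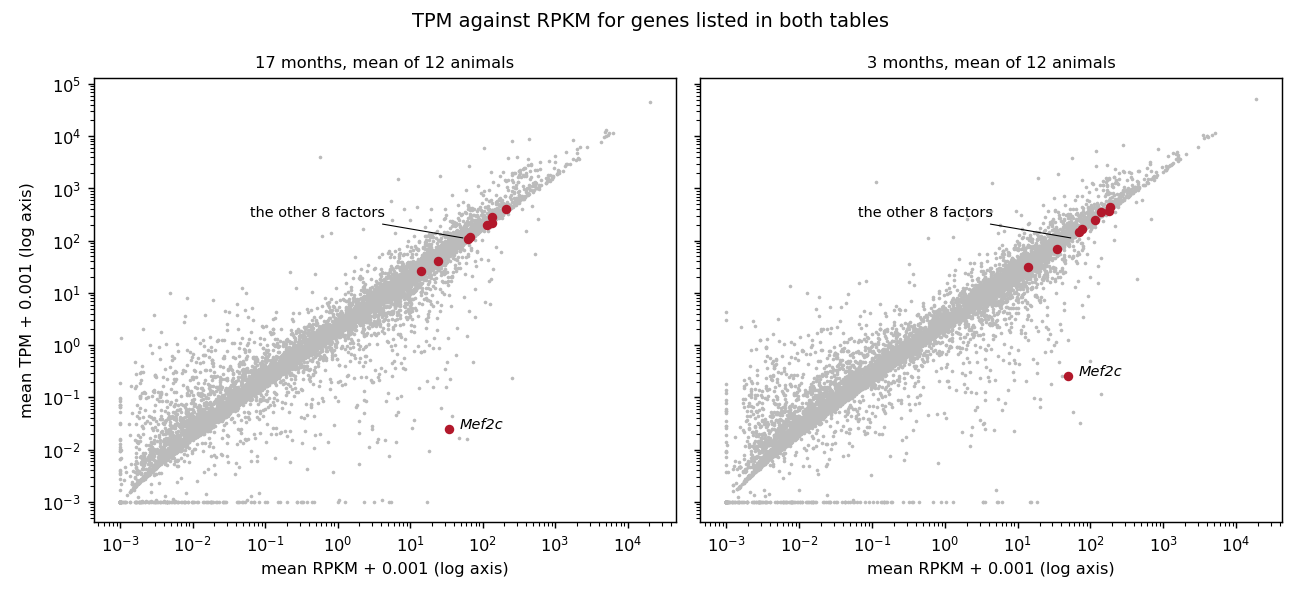
Mean TPM against mean RPKM over the 12 animals of an age, both with 0.001 added and on log axes, for every gene listed in both tables (grey) and the 9 factors (red). Mef2c lies far below the diagonal cloud at 34.4 and 48.5 RPKM, while the other 8 factors lie within it.

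At 17 months, none of the factors passed the test between HOM and WT. The comparison asks whether loss of C9orf72 changes the expression of the factors in old microglia. By limma on log2(TPM + 1), adjusted over all genes, 0 of the 8 factors tested were called, against 0.712% of 11792 genes, and 0 of 9 by RPKM, against 8.34% of 11173 genes. At an unadjusted p under 0.05, 0 of 8 passed by TPM, against 18.6% of genes, and 2 of 9 by RPKM (Mef2a and Mef2c), against 26.7%. The median log2 change of the 8 factors was 0.02, with 5 positive and 3 negative, beside a median of 0.05 over all genes.

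Mef2a, which encodes a MADS-box factor of the MEF2 family, measured 116, 118, 99.2 and 82.6 TPM in HOM, 103, 152, 122 and 91.2 TPM in HET and 141, 109.6, 142 and 112 TPM in WT at 17 months. A pair of WT animals lay above all HOM animals, and the other WT animals lay within the HOM range, so the groups overlapped. The log2 change of HOM over WT was -0.28 (SE 0.163, 95% interval -0.63 to 0.07, limma adjusted p = 0.394). It was -0.44 with sex as a term and -0.17 without HOM-7901. Over the other settings its limma adjusted p ran from 0.0727, with each library centred on its median (log2 change -0.35), to 0.652, without HOM-7901. By RPKM Mef2a measured 65.1, 68.5, 56.8 and 50.4 in HOM and 75.7, 63.8, 80.5 and 67.2 in WT, and the log2 change was -0.26 (limma adjusted p = 0.171). Mef2c measured 35.6, 32.9, 28.2 and 26.7 RPKM in HOM, 32.6, 39.6, 36.3 and 32.8 RPKM in HET and 36.4, 32.3, 43.4 and 36.2 RPKM in WT. Its lowest HOM animals, HOM-7899 and HOM-7901, were also the lowest HOM animals for Mef2a, and a WT animal at 32.3 RPKM kept the groups from separating. The log2 change of Mef2c was -0.26 on the log2(RPKM + 1) scale (SE 0.109, 95% interval -0.50 to -0.02, limma adjusted p = 0.149).

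Cebpa, whose product starts the myeloid programme, measured 202, 199, 222 and 193 TPM in HOM, 233, 267, 228 and 168 TPM in HET and 198, 184, 202 and 142 TPM in WT at 17 months. The 3 highest HET animals lay above every WT animal and HET-7796 lay inside the WT range. The log2 change was 0.18 for HOM over WT (95% interval -0.12 to 0.49, limma adjusted p = 0.545) and 0.30 for HET over WT (SE 0.141, 95% interval -0.01 to 0.60, adjusted p = 0.564). By RPKM Cebpa measured 137, 134, 126 and 110.1 in HET and 104, 104, 113 and 83.6 in WT, with a log2 change of 0.32 (SE 0.0976, limma adjusted p = 0.211). Between HET and WT 0 of 8 factors were called by TPM, against 0.237% of genes, and 0 of 9 by RPKM, against 0.152%. The smallest adjusted p of HET over WT was that of Cebpa by either unit.

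Sall1, a zinc finger factor needed for the microglial state in mice, measured 262, 267, 238 and 163 TPM in HOM, 197, 281, 203 and 138 TPM in HET and 232, 198, 266 and 190.2 TPM in WT at 17 months. Within each genotype its animals spread over much of the whole range, and the log2 change of HOM over WT was 0.06 (95% interval -0.39 to 0.50, limma adjusted p = 0.924). Spi1 measured 444, 387, 466 and 349 TPM in HOM, 452, 434, 411 and 298 TPM in HET and 461, 379.9, 439.7 and 359 TPM in WT, a log2 change of 0.01 (95% interval -0.30 to 0.31, adjusted p = 0.991). Irf8 measured 318, 275, 276 and 259 TPM in HOM, 290.0, 334, 298 and 239.6 TPM in HET and 315, 278, 306 and 249 TPM in WT, a log2 change of -0.02 (95% interval -0.26 to 0.22, adjusted p = 0.941). For PU.1 and its partner IRF8 the HOM and WT ranges thus covered nearly the same values. Maf measured 119.7, 101, 98.3 and 86.3 TPM in HOM, 106, 129, 125 and 94.0 TPM in HET and 115, 106, 123 and 89.1 TPM in WT. Runx1 measured 27.5, 26.2, 25.2 and 25.3 TPM in HOM, 26.0, 31.5, 28.5 and 20.6 TPM in HET and 27.4, 24.2, 28.4 and 21.7 TPM in WT. Smad3 measured 46.1, 45.8, 41.8 and 36.8 TPM in HOM, 38.1, 55.1, 40.4 and 26.9 TPM in HET and 43.2, 36.6, 42.2 and 34.2 TPM in WT. For Maf, Runx1 and Smad3 the 3 genotypes overlapped, and the HET group held both the highest and the lowest animal for Runx1 and for Smad3. Their log2 changes of HOM over WT were -0.09, 0.04 and 0.12, with 95% intervals of -0.38 to 0.19, -0.23 to 0.31 and -0.25 to 0.49.

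Between HOM and HET at 17 months, 0 of 8 factors were called, against 1.86% of 11792 genes, and 0 of 9 by RPKM, against 2.68% of 11173. The log2 changes ran from -0.16 for Maf and -0.16 for Mef2a to 0.20 for Sall1, with a median of -0.03 beside 0.07 over all genes. With sex as a term they were -0.37 for Maf, -0.40 for Mef2a and -0.18 for Sall1, all 3 short of a call. The 95% intervals reached from -0.63 to 0.64 over the 3 comparisons of this age, so a change by that much in either direction could lie inside them for the most variable factors. With both HET animals of the highest neutrophil sums left out, HET-7791 and HET-7796, still 0 of the 8 factors were called in each comparison.

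**Figure D3:**
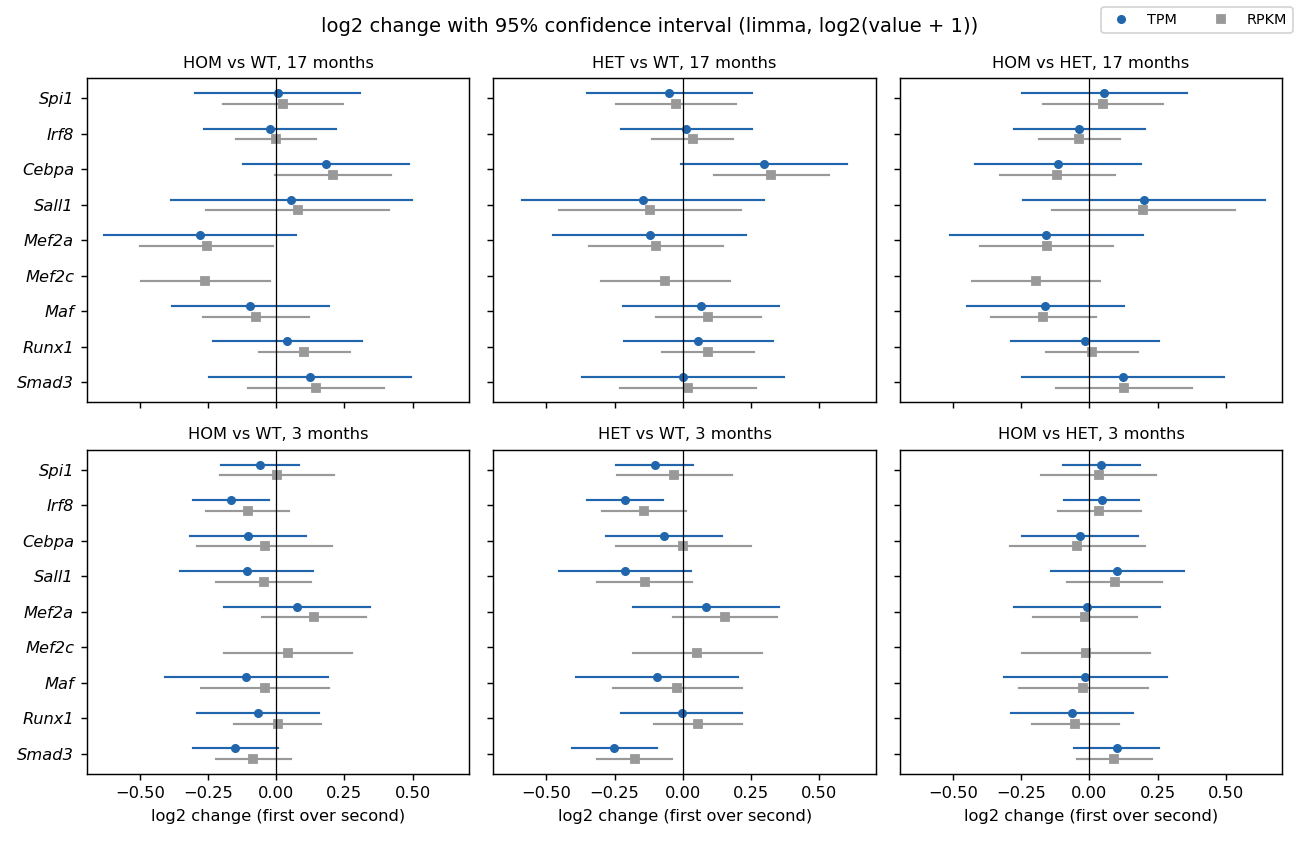
log2 change with 95% confidence interval (limma) for each factor in the 6 comparisons, at 17 months (top) and 3 months (bottom), from TPM (circles) and RPKM (squares), with Mef2c from RPKM only. In each comparison the 17-month interval is the wider one for 7 of 8 factors by TPM (not Maf) and for 6 of 9 by RPKM (not Maf, Irf8 or Cebpa), and no change was past the adjusted threshold.

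At 3 months, no factor passed the test either, and the smallest p-values belonged to Smad3 and Irf8. Between HOM and WT 0 of 8 factors were called, against 0.0604% of 11587 genes, and 0 of 9 by RPKM, against 0.0557% of 10781. Between HET and WT 0 of 8 were called, against 0.0432%, and 0 of 9 by RPKM, against 0.00928%. Between HOM and HET 0 of 8 were called, against 0.0259%, and 0 of 9 by RPKM, against 0.00928%. Of the 8 factors 7 were negative in HOM over WT and 7 in HET over WT, with medians of -0.11 and -0.10, beside -0.10 and -0.09 over all genes. The shift of the factors was thus close to that of the whole table, and both comparisons share the WT animals.

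Smad3, the SMAD protein that carries TGF-beta signals to the genome, measured 68.7, 71.6, 65.9 and 72.2 TPM in HOM, 63.1, 70.1, 56.0 and 71.2 TPM in HET and 77.4, 79.8, 76.7 and 75.5 TPM in WT at 3 months. All 4 WT animals lay above all 8 animals of the other genotypes, the only case among the factors in which groups did not overlap. Ranges lay apart for 16.8% of all genes between HOM and WT and for 11.3% between HET and WT. The log2 change was -0.15 in HOM over WT (SE 0.0719, 95% interval -0.31 to 0.01, limma adjusted p = 0.272) and -0.25 in HET over WT (95% interval -0.41 to -0.10, limma adjusted p = 0.0902). By RPKM the separation was lost, with 35.5, 34.9, 33.3 and 35.3 RPKM in HOM, 31.3, 32.6, 30.4 and 36.3 RPKM in HET and 37.8, 38.3, 37.8 and 33.8 RPKM in WT. The log2 change of HET over WT was -0.18 by RPKM (limma adjusted p = 0.233). With each library centred on its median, it was -0.04 in HOM over WT and -0.14 in HET over WT (limma adjusted p = 0.884 and 0.387). Without HET-8309, the highest HET animal, Smad3 was called in HET over WT by TPM (log2 change -0.30, limma adjusted p = 0.0451). In that setting 467 of 11587 genes (4.03%) were called, against 5 with all animals.

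Irf8, an interferon regulatory factor that binds with PU.1, measured 349, 361, 349 and 337 TPM in HOM, 327, 353, 336 and 336 TPM in HET and 347, 378, 430.1 and 415 TPM in WT at 3 months. A pair of WT animals stood highest, at 430.1 and 415 TPM, a further WT animal at 378 TPM lay above every knockout, and the WT animal at 347 TPM lay within the HOM and HET ranges. The log2 change was -0.17 in HOM over WT (SE 0.0637, limma adjusted p = 0.191) and -0.21 in HET over WT (limma adjusted p = 0.0991). At an unadjusted p under 0.05, Irf8 was the only one of 8 factors in HOM over WT, where 19.7% of genes passed, and Irf8 and Smad3 were 2 of 8 in HET over WT, where 21.6% passed. By RPKM the log2 changes of Irf8 were -0.10 and -0.14 in HOM and HET over WT (limma adjusted p = 0.568 and 0.372). With each library centred they were -0.05 and -0.10 by TPM (limma adjusted p = 0.814 and 0.541).

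The other factors overlapped between the genotypes at 3 months. Sall1 measured 352, 380.4, 352 and 369 TPM in HOM, 343, 414, 272 and 338 TPM in HET and 349, 379.5, 384 and 462 TPM in WT, and its log2 change was -0.11 in HOM over WT and -0.21 in HET over WT (limma adjusted p = 0.613 and 0.295). Spi1 measured 452, 396, 443 and 435 TPM in HOM, 392, 392, 448 and 443 TPM in HET and 423, 468, 473 and 433 TPM in WT. The log2 changes of Spi1 were -0.06 and -0.10 in HOM and HET over WT, within 95% intervals of -0.20 to 0.08 and -0.25 to 0.04. Cebpa measured 237, 211, 271 and 252 TPM in HOM, 243, 239, 222 and 289 TPM in HET and 279.9, 280.0, 253 and 229 TPM in WT. Mef2a measured 149.8, 194, 152 and 179 TPM in HOM, 176, 204, 138 and 164 TPM in HET and 150.0, 152, 148 and 189 TPM in WT. For Mef2a 3 of the WT animals lay close together and the fourth, WT-8326, lay among the higher knockouts, with a log2 change of 0.08 in HOM over WT (95% interval -0.19 to 0.35). Mef2c measured 43.2, 56.5, 47.0 and 48.8 RPKM in HOM, 53.6, 58.0, 41.2 and 45.1 RPKM in HET and 45.7, 44.1, 47.0 and 52.4 RPKM in WT. Maf measured 125, 166, 138 and 142 TPM in HOM, 162, 184, 111 and 127 TPM in HET and 147, 151, 148 and 168 TPM in WT. Runx1 measured 29.4, 31.1, 31.0 and 28.6 TPM in HOM, 34.0, 37.6, 25.7 and 29.5 TPM in HET and 30.8, 31.4, 29.0 and 35.1 TPM in WT. For Maf and Runx1, as for Mef2a, HET-8303 and HET-8304 formed the ends of the range of all 12 animals. Over the 3 comparisons of this age, the widest 95% intervals among the 8 factors reached from -0.45 to 0.35.

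The levels at the 2 ages come from separate tables and are given side by side with no test. By TPM the 17-month mean was a lower share of the 3-month mean for Sall1 and Smad3 than for the other factors in WT and HET. Sall1 at 17 months stood at 64.0% of its 3-month level in HOM, 59.9% in HET and 56.3% in WT, and Smad3 at 61.2%, 61.7% and 50.5% in HOM, HET and WT. Mef2a stood at 61.7% in HOM, 68.7% in HET and 78.9% in WT. Spi1 was nearly level, at 95.5% in HOM, 95.3% in HET and 91.2% in WT. The median over all 11436 genes was 84.2% in HOM, 79.2% in HET and 76.3% in WT. Irf8, Cebpa, Maf and Runx1 lay between, from 69.6% for Cebpa in WT to 90.2% for Cebpa in HET. By RPKM the whole table sat higher, with a median of 101% in HOM, 94.6% in HET and 94.7% in WT, and Spi1 stood at 117%, 115% and 115%. Sall1 and Smad3 remained under the median by RPKM, at 78.3% and 75.1% in HOM, 72.3% and 73.8% in HET and 71.1% and 63.5% in WT. Mef2c by RPKM stood at 63.1% in HOM, 71.4% in HET and 78.4% in WT. The same markers of microglia were also lower at 17 months, as their sums above show, and their part in these levels was not tested.

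Whether a genotype effect differed with age was tested over all 24 animals, since the level of each table cancels within its own age. Of 8 factors 0 were called for the HOM over WT effect, against 0.254% of 11436 genes, 0 for HET over WT, against 0.691%, and 0 for HOM over HET, against 2.03%. By RPKM 0 of 9 were called in each, against 5.23%, 1.08% and 0.847% of 10623 genes. Mef2a had the smallest adjusted p for HOM over WT by either unit. The 17-month log2 change of HOM over WT minus the 3-month one was -0.36 for Mef2a (SE 0.214, 95% interval -0.80 to 0.09, limma adjusted p = 0.344), and -0.39 by RPKM (limma adjusted p = 0.101). The median of this difference over all genes was 0.16. With each library centred on its median, the difference of Mef2a was -0.54 (95% interval -0.85 to -0.23) and was called (limma adjusted p = 0.0457), where 454 of 11436 genes (3.97%) were called. Over the other settings that kept all animals its adjusted p ran up to 0.395. Without single animals, the smallest limma adjusted p of any factor ran from 0.233 to 0.456. Mef2c had a difference of -0.30 by RPKM (SE 0.159, limma adjusted p = 0.24). For HET over WT the smallest adjusted p was that of Cebpa by TPM, with a difference of 0.37 (SE 0.178, limma adjusted p = 0.348).

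Among animals of the same genotype, the factors varied together by TPM at 17 months, and only some of them did at 3 months. At 17 months HET-7794 had the highest level of all 12 animals for 7 of 8 factors and HET-7796 the lowest for 5 of 8. HET-7796 also had the smallest share of TPM in listed genes, 78.9%, and the highest neutrophil marker sum, 11494 TPM, against 568 TPM in HET-7794. HET-7791, with a neutrophil marker sum of 11172 TPM, was lowest for 0 of 8 factors. The part of neutrophils in these levels was not tested. At 3 months HET-8304 was lowest for 5 of 8 factors and HET-8303 highest for 3. HET-8304 also had the highest oligodendrocyte, choroid plexus and endothelial marker sums of its age, at 2527, 4136 and 629 TPM, and the part of these cells in its factor levels was not tested.

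After removal of the group means, all 28 pairs of the 8 factors had a positive Pearson r over the 24 animals, with a median of 0.69 and a range of 0.21 to 0.92, but the ages differed. Within the 12 animals of 17 months all 28 were positive, from 0.66 to 0.95 with a median of 0.85. Within the 12 animals of 3 months 18 were positive and 10 negative, from -0.83 to 0.90 with a median of 0.29. The negative ones at 3 months included Spi1 with Maf (-0.83), Mef2a (-0.75), Runx1 (-0.72) and Sall1 (-0.52), and Irf8 with Cebpa (-0.51), and at 17 months the same pairs stood at 0.73, 0.66, 0.77, 0.78 and 0.86. The difference between the ages was not tested. Of the 28, 18 had an adjusted p under 0.05 by permutation within groups, adjusted over the 28 pairs. The closest pair was Sall1 and Mef2a, with r = 0.92 and Spearman rho = 0.95 (permutation p for each 1e-05, the smallest possible, adjusted p = 9.3e-05 for r). Without the 2 animals farthest from the median of Sall1, r was 0.91, and it was 0.95 within the 12 animals of 17 months and 0.90 within those of 3 months. All genes of a library share its depth and composition, so each library was also centred on its median over genes. Then 22 of 28 pairs were positive, the median r was 0.19 (28 positive at 17 months and 15 at 3 months), and 4 pairs kept an adjusted p under 0.05, all positive and 3 of them with Sall1.

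Sall1 and Mef2a had r = 0.83 and rho = 0.81 after centring, and r = 0.79 without the 2 farthest animals (permutation adjusted p = 0.00084), with r = 0.86 within 17 months and 0.84 within 3 months. Mef2a and Maf had r = 0.72 and rho = 0.70, and r = 0.77 without the 2 (permutation adjusted p = 0.00462), with r = 0.57 within 17 months and 0.85 within 3 months. Sall1 and Smad3 had r = 0.71 and rho = 0.62, and r = 0.63 without the 2 (permutation adjusted p = 0.0358), with r = 0.85 within 17 months and 0.31 within 3 months. Sall1 and Maf had r = 0.56 and rho = 0.59, and r = 0.60 without the 2 (permutation adjusted p = 0.0493), with r = 0.52 within 17 months and 0.74 within 3 months. All 4 of these pairs lay among Sall1, Mef2a, Maf and Smad3, but not every pair of these factors passed. Mef2a and Smad3 had a centred r of 0.55, and Maf and Smad3 of 0.20 (permutation adjusted p = 0.0563 and 0.57). Some pairs with Runx1 also fell just short. Runx1 had a centred r of 0.73 with Maf, 0.53 with Sall1 and 0.55 with Mef2a (permutation adjusted p = 0.0512, 0.0563 and 0.0563). Spi1, on the other hand, had a centred r of -0.40 with Mef2a and -0.47 with Maf, and 0.53 with Cebpa. None of the 3 was under the adjusted threshold (permutation adjusted p = 0.228, 0.173 and 0.0563). Within 17 months these r values were 0.036, 0.16 and 0.53, and within 3 months -0.84, -0.86 and 0.55. By RPKM, which brings in Mef2c, 15 of 36 pairs passed, all positive over the 24 animals. All 36 were positive within 17 months, while 22 of 36 were negative within 3 months, among the 15 Mef2a with Smad3 (-0.094) and Sall1 with Smad3 (-0.0066). Mef2a and Mef2c were the closest, with r = 0.91 and rho = 0.89, and r = 0.92 without the 2 farthest animals (permutation adjusted p = 0.00018), with r = 0.91 within 17 months and 0.93 within 3 months. Mef2c and Maf had r = 0.84, Sall1 and Mef2c r = 0.74, Spi1 and Cebpa r = 0.62 and Spi1 and Irf8 r = 0.59 by RPKM, each with a permutation adjusted p under 0.05. Runx1 also passed by RPKM, with Maf (r = 0.67), Mef2c (0.60), Sall1 (0.57) and Mef2a (0.52). Mef2a and Mef2c encode related proteins, and whether reads were shared between them in the counting is not stated.

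**Figure D4:**
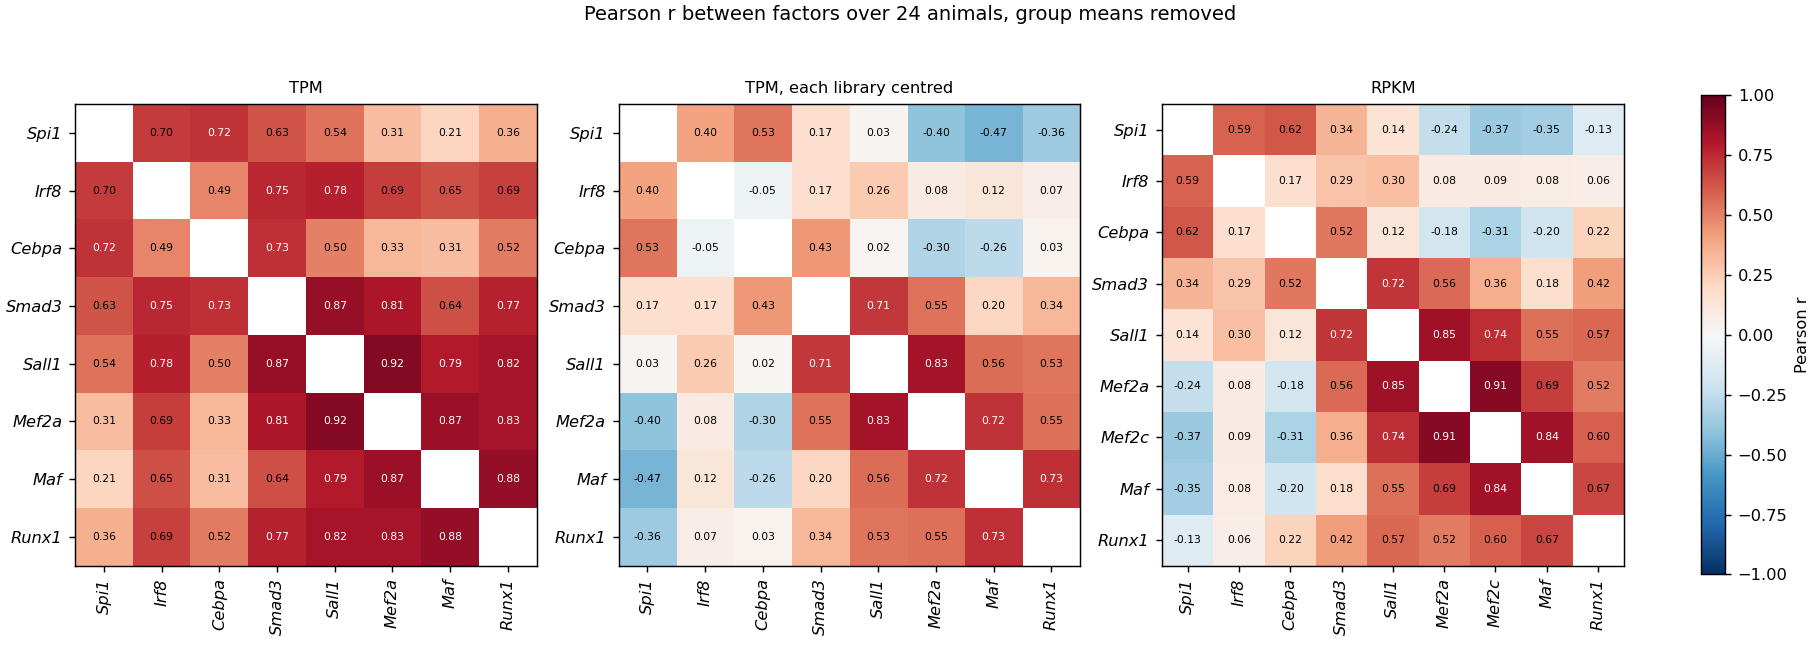
Pearson r between factors over 24 animals after removal of the group means, from TPM (left), TPM with each library centred on its median (middle) and RPKM with Mef2c (right), on a colour scale from -1 to 1. Sall1 and Mef2a are at 0.92, 0.83 and 0.85 in the 3 panels, and Spi1 with Maf is at 0.21, -0.47 and -0.35, with opposite signs at the 2 ages in each panel.

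Over all genes kept at both ages, the genes most like each factor across the 24 animals, with the mean of each age removed, were taken by Pearson r as a description. They were Prkca, Atxn1l and Ythdf2 for Sall1 (r = 0.94, 0.93 and 0.93), Pde3b, Snx13 and Ddx6 for Mef2a (0.95, 0.94 and 0.92) and Rab8b, Elmod2 and Dpy19l4 for Maf (0.93, 0.93 and 0.92). Zbtb39, Traf3 and Ppard were closest to Smad3 (r = 0.95, 0.94 and 0.94) and Zcchc6, Pou2f1 and Cdk13 to Runx1 (0.90, 0.90 and 0.89). Gnai2, Rnh1 and Coro1b were closest to Spi1 (r = 0.94, 0.93 and 0.91), Nmt1, Faf2 and Btbd9 to Irf8 (0.90, 0.89 and 0.89) and Neu1, Pcbp1 and Phf23 to Cebpa (0.86, 0.84 and 0.82). For Mef2c they were Arhgap5, Ythdf3 and Fam134b by RPKM (r = 0.95, 0.93 and 0.93). The median r with all genes was 0.28 to 0.45 for the 8 factors by TPM and -0.11 for Mef2c by RPKM. None of the named genes is itself one of the 9 factors, and the libraries' shared depth and composition enter every r.

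Relatives and partners of the 9 factors were counted next. Of 37 family members (other SALL, ETS, IRF, MEF2, MAF, RUNX, SMAD and C/EBP genes), 29 were kept at each age and 0 were called by TPM in any of the 6 genotype comparisons. By RPKM 3 were called in HOM over WT at 17 months, against 8.34% of all genes, and with each library centred 1 was, against 609 of 11792. Without HET-8309, 1 was called in HET over WT at 3 months, against 467 of 11587 genes (4.03%). In HOM over WT at 17 months 23 of the 29 were positive and 6 negative, with a median log2 change of 0.21 beside 0.05 over all genes. Irf5, an interferon regulatory factor of inflammatory responses, averaged 320 TPM in HOM and 270 TPM in WT at 17 months (log2 change 0.25, limma adjusted p = 0.206), and 385 and 415 TPM in HOM and WT at 3 months (-0.11, adjusted p = 0.465).

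Of 12 genes of CSF1R signalling, the survival pathway of microglia, 12 were kept at 17 months and 11 at 3 months, and 0 were called by TPM in the 6 comparisons. By RPKM 1 was called in HOM over WT and 1 in HOM over HET at 17 months, against 8.34% and 2.68% of all genes. The same counts were found with each library centred, while up to 1 was called in HOM over WT without single animals. In HOM over WT these settings called 609 of 11792 genes and 1 to 367 genes. For HOM over HET, the settings other than leaving out single animals, centring among them, called 45 to 299 genes. Csf1r, the receptor, averaged 3447 TPM in HOM and 3713 TPM in WT at 17 months (log2 change -0.11, limma adjusted p = 0.798), and 6061 and 6536 TPM in HOM and WT at 3 months (-0.11, adjusted p = 0.41). Tyrobp, an adaptor of the pathway, averaged 5791 TPM in HOM and 6591 TPM in WT at 17 months (log2 change -0.19, limma adjusted p = 0.267), and 4799 and 4752 TPM in HOM and WT at 3 months (0.01, adjusted p = 0.929).

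Of 30 genes of TGF-beta signalling, 29 were kept at 17 months and 25 at 3 months. Of the 6 genotype comparisons by TPM, calls were made in HOM over HET at 17 months, where 3 rose and 0 fell, beside 1.86% of all genes called. That count was 1 by RPKM, 2 with each library centred, 0 with sex as a term and 1 to 3 without single animals. Among all genes 2.68% were called by RPKM, 45 with sex as a term and 103 to 245 without single animals. The settings other than leaving out single animals, centring among them, called 45 to 299 of 11792 genes or fewer tested. The count in HOM over WT at 17 months was 0 by TPM, 3 by RPKM and 2 centred, against 0.712%, 8.34% and 609 of 11792 of all genes. Ltbp4, which binds latent TGF-beta in the matrix, averaged 27.3 ± 5.15 TPM in HOM and 9.47 ± 3.51 TPM in HET (log2 change 1.47, limma adjusted p = 0.00234). Tgfbr3, a co-receptor, averaged 2.16 ± 0.490 TPM in HOM and 0.832 ± 0.200 TPM in HET (0.78, limma adjusted p = 0.0205). Tgfb2, a ligand, averaged 2.00 ± 0.265 TPM in HOM and 0.747 ± 0.331 TPM in HET (0.80, limma adjusted p = 0.0404). Smad3 itself was not called in that comparison (log2 change 0.12, limma adjusted p = 0.833). In the same comparison 9 of 11 endothelial and mural markers rose and 0 fell, and their sum was higher in every HOM than in every HET animal. Their part in the rise of Ltbp4, Tgfbr3 and Tgfb2 was not tested. Tgfb1, the ligand of the highest level, averaged 259 TPM in HOM and 238 TPM in WT at 17 months (log2 change 0.12, limma adjusted p = 0.692), and 339 and 372 TPM in HOM and WT at 3 months (-0.13, adjusted p = 0.154). Tgfbr2, a receptor, averaged 179.8 TPM in HOM and 215 TPM in WT at 17 months (log2 change -0.27, limma adjusted p = 0.511), and 261 and 271 TPM in HOM and WT at 3 months (-0.05, adjusted p = 0.686).

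Of 57 other transcription factors of macrophages, 53 were kept at each age. In HOM over WT at 17 months 2 rose and 0 fell, and in HOM over HET at 17 months 1 rose and 0 fell, while the other 4 comparisons had 0 calls. Over all genes 0.712% were called in HOM over WT and 1.86% in HOM over HET. The count in HOM over WT was 9 by RPKM, 6 with each library centred, 0 with sex as a term and 0 to 6 without single animals, with 6 reached without WT-7785. Among all genes 8.34% were called by RPKM, 609 of 11792 centred, 5 with sex as a term and 1 to 367 without single animals. Id3, a helix-loop-helix inhibitor, averaged 50.9 ± 5.17 TPM in HOM, 19.4 ± 5.04 TPM in HET and 24.9 ± 3.25 TPM in WT. Its log2 change was 1.003 in HOM over WT (limma adjusted p = 0.0349) and 1.37 in HOM over HET (limma adjusted p = 0.00145). Every HOM animal, from 44.1 to 55.9 TPM, lay above every HET animal, from 14.9 to 25.8 TPM, and every WT animal, from 20.6 to 28.4 TPM. Nr4a1, an immediate early nuclear receptor, averaged 209 ± 104 TPM in HOM and 69.0 ± 12.7 TPM in WT (1.49, limma adjusted p = 0.0468). Jun averaged 1545 TPM in HOM and 1053 TPM in WT at 17 months (log2 change 0.53, limma adjusted p = 0.115), and 2462 and 2377 TPM in HOM and WT at 3 months (0.06, adjusted p = 0.872). Junb, like Jun an AP-1 subunit, averaged 1597 TPM in HOM and 1179 TPM in WT at 17 months (log2 change 0.45, limma adjusted p = 0.0732), and 1454 and 1335 TPM in HOM and WT at 3 months (0.13, adjusted p = 0.734). Of 11 endothelial and mural markers 2 were also called higher in HOM over WT at 17 months, and their part in the rise of Id3 was not tested.

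Of 25 microglial genes tied to these factors in mouse work, all were kept at both ages, and 0 were called at 3 months. In HOM over WT at 17 months 0 rose and 1 fell, and 23 of 25 had a negative log2 change, with a median of -0.18 beside 0.05 over all genes, of which 0.712% were called. The count of calls was 2 by RPKM, 4 with each library centred, 0 with sex as a term and 0 to 1 without single animals. Among all genes the same settings called 8.34%, 609 of 11792, 5 and 1 to 367 genes. In the same comparison all 10 microglial markers were negative, with a median of -0.19. All 12 neutrophil, all 9 monocyte and all 8 choroid plexus and ependymal markers kept were positive, with medians of 1.66, 1.35 and 1.35, and of these 1 choroid plexus marker was called. All 9 oligodendrocyte and all 7 neuronal markers kept were negative, with medians of -1.31 and -0.55. Of these, 1 oligodendrocyte marker was called. The part of all these cells in the lower values was not tested. Gpr34, a receptor for lysophosphatidylserine that is typical of microglia, measured 439, 340.4, 308 and 388 TPM in HOM, 497, 619, 698 and 630.1 TPM in HET and 549.5, 695, 620.5 and 747 TPM in WT. All HOM animals lay below all HET and all WT animals, and the log2 change was -0.83 in HOM over WT (limma adjusted p = 0.0349) and -0.73 in HOM over HET (limma adjusted p = 0.0138). Spp1, an osteopontin gene of activated microglia, averaged 227 ± 78.0 TPM in HOM and 579.9 ± 60.7 TPM in HET at 17 months (log2 change of HOM over HET -1.42, limma adjusted p = 0.0244). In WT Spp1 averaged 422 ± 165 TPM, below HET. The WT range of 260 to 605 TPM overlapped the HOM range of 119 to 289 TPM. At 3 months the Gpr34 groups overlapped, from 748 to 1457 TPM in HOM, 762 to 1571 TPM in HET and 706 to 1232 TPM in WT. Cst3 averaged 45462 TPM in HOM and 50560 TPM in WT at 17 months (log2 change -0.15, limma adjusted p = 0.53), and 52980 and 52518 TPM in HOM and WT at 3 months (0.01, adjusted p = 0.969). Apoe averaged 11937 TPM in HOM and 11994 TPM in WT at 17 months (log2 change 0.03, limma adjusted p = 0.96).

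Of the 9 calls among these lists at 17 months, that of Id3 in HOM over HET was kept in each of 21 settings. With sex as a term the other calls were lost, at a limma adjusted p of 0.0799 and 0.125 for Gpr34, 0.222 for Spp1, 0.0799 for Id3 in HOM over WT, 0.133 for Nr4a1, 0.0595 for Ltbp4, 0.0868 for Tgfbr3 and 0.238 for Tgfb2. At this age only 1 HOM animal, HOM-7901, was female and only 1 WT animal, WT-7785, was male. Leaving out single animals lost the call of Nr4a1 in 7 of 12 cases, of Tgfb2 in 8, of Gpr34 and Id3 in HOM over WT in 6 each, and of Ltbp4 in 0, at adjusted p-values of at most 0.15 for Gpr34, Id3 and Nr4a1.

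**Figure D5:**
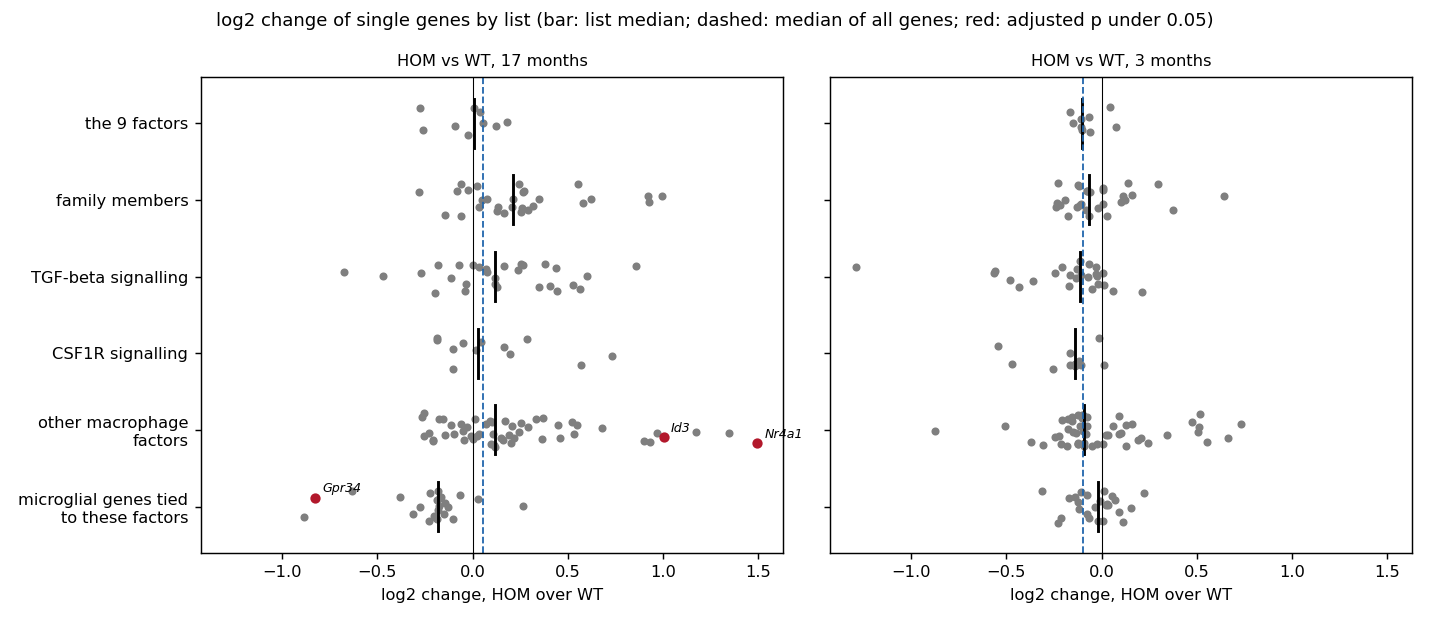
log2 change of each gene (points) and the median (bar) of the 9 factors and of the 5 gene lists, HOM over WT at 17 months and at 3 months, with called genes marked. The factors lie around 0 at 17 months, where the microglial genes tied to them have a median of -0.18. At 3 months most factors lie below 0, where the median of all genes is -0.10.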

How the data were processed

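TPM and RPKM per gene were deposited by the authors in separate tables for each age, 1 column per animal. The build was mm10, and Salmon 0.8.2, DESeq2, Partek 7.17.0918 and TopHat2 2.1.1 are named, per the submitters' processing notes. Which tool made which table is not given in the sources used here. The deposited TPM columns summed to 78.9% to 90.7% of a full TPM library, so a share of each library lies outside the listed genes. Columns were grouped by the genotype and animal number in the RPKM headers, and 4 animals called hemi there were taken as HET. A further 3 columns of per-sample values in the 17-month RPKM table were not used. Nothing in the labels ties the animal numbers to litters, days or batches.

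At each age, a gene was kept where its 12 animals averaged at least 1 TPM (or RPKM), 11587 by TPM at 3 months and 11792 at 17 months. log2(value + 1) was fitted with limma 3.58.1 in R 4.3.3, the 12 animals of an age in 1 model with a mean per genotype, moderated with a trend, two-sided, with Benjamini-Hochberg adjustment over all genes kept and a call at an adjusted p under 0.05. Changes on this scale understate those of genes near 1 TPM. The ages stand in separate tables and were not tested against each other. Differences of genotype effects between ages were fitted over 24 animals. Correlations between factors used deviations from the group means and 100000 permutations within groups. The fits were tested on simulated data with known changes. Promoter windows came from RefSeq (GRCm38.p6) and gene positions from an annotation of GRCm38.

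The other settings were a pseudocount of 0.1, no filter on low values, a mean of at least 5 TPM, each library centred on its median, quantile normalization, sex as a term (an animal with a Y-linked TPM sum above 5 was read as male), 2 genotypes in the fit, the RPKM tables and each animal left out in turn. The use of RPKM for Mef2c, the centred and RPKM correlations, and the setting without 2 HET animals were added after the data had been seen. All 9 factors are named, and in each other gene list every called gene (at most 6) and the 2 genes of the highest mean TPM. Some genes that this rule names are not reported here. The members and lists were chosen with earlier results of these data known. Python 3.11.15, pandas 2.3.3, scipy 1.17.1 and matplotlib 3.10.9 were used for tables, permutations and figures.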

Additional observations from a re-analysis of the deposited data

Results flagged for a closer look

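In the 3-month WT group, WT-8326 stood apart from the other 3 for Mef2a and Maf. Its Mef2a level was 188.85 TPM, against 148 to 152 TPM in the others, and the gap to the nearest animal was 0.9 of the group's range. Its Maf level was 167.97 TPM, against 147 to 151 TPM in the others, with a gap of 0.848 of the range. Both gaps were past Dixon's 95% limit, 54 groups of 4 were examined, and chance alone passes the limit in about 1 of 20 groups. WT-8326 was the only male of this group and had its highest microglial marker sum, 33239 TPM, and the part of either in these levels was not tested.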

How the results depend on the processing

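Of the 54 log2 changes of single factors, 34 changed sign in at least 1 setting, and none of the 89 changes with a turned sign was past the threshold. No factor was called in the settings tried except for 2 cases. Without HET-8309, 1 factor (Smad3) was called in HET over WT at 3 months, where leaving out single animals gave 0 to 1 calls, and 467 of 11587 genes (4.03%) were called in that setting. With each library centred on its median, 1 factor (Mef2a) was called for the difference of the HOM over WT effect between ages, beside 454 of 11436 genes (3.97%). The cause of these and of the turned signs below was not tested.

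By RPKM, signs turned for HOM over WT at 3 months in Spi1 (0.0028) and Runx1 (0.0053), for HET over WT at 3 months in Runx1 (0.056) and Cebpa (0.0018), and for HOM over HET at 17 months in Runx1 (0.010). With each library centred, signs turned for HOM over WT at 3 months in Sall1 (0.0038), Spi1 (0.053), Maf (0.0033), Runx1 (0.046) and Cebpa (0.010), for HET over WT at 3 months in Spi1 (0.0069), Maf (0.016), Runx1 (0.11) and Cebpa (0.041), for HOM over WT at 17 months in Sall1 (-0.017), Spi1 (-0.067) and Runx1 (-0.031), and for HOM over HET at 17 months in Spi1 (-0.028). With quantile normalization, signs turned for HOM over WT at 3 months in Runx1 (0.033), for HET over WT at 3 months in Runx1 (0.10), and for HOM over WT at 17 months in Spi1 (-0.0061) and Runx1 (-0.024). With sex as a term, signs turned for HET over WT at 3 months in Mef2a (-0.040) and Cebpa (0.10), for HOM over HET at 3 months in Mef2a (0.075) and Maf (0.035), for HOM over WT at 17 months in Sall1 (-0.20), Spi1 (-0.11) and Runx1 (-0.026), for HET over WT at 17 months in Spi1 (0.0067), and for HOM over HET at 17 months in Sall1 (-0.18), Spi1 (-0.11) and Smad3 (-0.036).

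Leaving out single animals turned the sign within these ranges. In HOM over WT at 3 months they were -0.029 to 0.10 for Mef2c. In HET over WT at 3 months they were -0.0046 to 0.18 for Mef2a, -0.026 to 0.14 for Mef2c, -0.21 to 0.026 for Maf and -0.088 to 0.090 for Runx1. In HOM over HET at 3 months they were -0.00088 to 0.20 for Sall1, -0.11 to 0.082 for Mef2a, -0.093 to 0.068 for Mef2c, -0.14 to 0.11 for Maf, -0.16 to 0.021 for Runx1 and -0.088 to 0.042 for Cebpa. In HOM over WT at 17 months they were -0.020 to 0.22 for Sall1, -0.057 to 0.081 for Spi1, -0.089 to 0.023 for Irf8 and -0.029 to 0.095 for Runx1. In HET over WT at 17 months they were -0.31 to 0.029 for Sall1, -0.12 to 0.085 for Spi1, -0.058 to 0.10 for Irf8, -0.13 to 0.012 for Mef2c, -0.023 to 0.15 for Maf, -0.027 to 0.17 for Runx1 and -0.16 to 0.17 for Smad3. In HOM over HET at 17 months they were -0.080 to 0.13 for Spi1, -0.13 to 0.034 for Irf8, -0.13 to 0.068 for Runx1 and -0.049 to 0.29 for Smad3.

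Counts over all genes moved far more. In HOM over WT at 17 months 84 genes were called, against 1 to 367 without single animals, 5 with sex as a term, 11 with no filter, 19 with a pseudocount of 0.1, 211 with 2 genotypes in the fit, 353 without HET-7791 and HET-7796, 609 centred, 633 after quantile normalization and 932 by RPKM. In HET over WT at 17 months 28 were called, against 0 to 232 without single animals and 0 (no filter) to 220 (sex as a term) otherwise, and in HOM over HET 219, against 103 to 245 and 45 (sex as a term) to 299 (RPKM). At 3 months 7 were called in HOM over WT, against 2 to 103 without single animals and 2 to 26 otherwise, 5 in HET over WT, against 3 to 467 and 1 to 89, and 3 in HOM over HET, against 3 to 66 and 1 to 7. For the differences between ages 29, 79 and 232 were called in HOM over WT, HET over WT and HOM over HET, against 1 to 655, 19 to 332 and 0 to 430 without single animals and 26 to 556, 44 to 194 and 23 to 244 otherwise. No paired analysis was possible because the replicate numbers of the labels could not be tied to the columns of the tables. With 4 animals per group, changes of the sizes inside the 95% intervals remain possible, and a missing call does not show equal levels. Depth per gene is not known from TPM.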
